A study of Homo sapiens with 5 samples.

Results

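The glycolysis and hypoxia response module holds 33 genes, taken by symbol from the deposited table of 27933 gene symbols. It consists of 17 glycolytic enzymes, 3 regulators of glycolytic flux, HIF1A with 2 prolyl hydroxylases, and 10 genes known to be induced by low oxygen. RNA of HaCaT cells, an established line of spontaneously immortalized human keratinocytes, was sequenced in 2 libraries labelled as control ("NC" in the titles) and 3 labelled AHNAK knockdown ("KD" in the titles, "si" in the column names). The series' design text calls the treated cells a knockout, and the sources used here do not give the agent, its dose or its time. All cells were grown in DMEM with fetal bovine serum and antibiotics in a humidified CO2 incubator, and no label names a low-oxygen treatment. The series title places AHNAK, a very large scaffold protein at the cell membrane, under oncostatin M receptor signalling in keratinocyte proliferation and differentiation.

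Glycolysis splits glucose into pyruvate in the cytosol, and lactate dehydrogenase turns pyruvate into lactate when it is not burnt in mitochondria. The transcription factor HIF-1, made of an oxygen-controlled alpha subunit (HIF1A) and a constant beta subunit, binds a short DNA core of the form A/GCGTG and raises most glycolytic genes together with genes of blood vessel growth, pH control, mitochondrial turnover and collagen modification. In normal oxygen the prolyl hydroxylases (EGLN genes) mark HIF1A protein for destruction, so that HIF activity is set mainly at the protein level. Keratinocytes live at some distance from blood vessels and are highly glycolytic.

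Sequences just before the transcription start are shown for 4 genes picked by hand from those whose groups did not overlap. LDHA, BNIP3 and ANKRD37 had lower values in every knockdown library than in either control, and P4HA1 had higher values. Each sequence covers the 250 bases before the RefSeq start (GRCh38.p14), written 5′ to 3′ on the strand of the gene, and capitals mark the HIF cores ACGTG and GCGTG on either strand (CACGT and CACGC when read on the gene's own strand).
LDHA, chr11:18394313-18394562, plus strand: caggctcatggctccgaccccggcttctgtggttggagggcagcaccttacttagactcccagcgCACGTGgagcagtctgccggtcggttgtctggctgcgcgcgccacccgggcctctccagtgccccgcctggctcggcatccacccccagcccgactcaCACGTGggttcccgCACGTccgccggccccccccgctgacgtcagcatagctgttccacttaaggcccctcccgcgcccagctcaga
BNIP3, chr10:131981924-131982173, minus strand: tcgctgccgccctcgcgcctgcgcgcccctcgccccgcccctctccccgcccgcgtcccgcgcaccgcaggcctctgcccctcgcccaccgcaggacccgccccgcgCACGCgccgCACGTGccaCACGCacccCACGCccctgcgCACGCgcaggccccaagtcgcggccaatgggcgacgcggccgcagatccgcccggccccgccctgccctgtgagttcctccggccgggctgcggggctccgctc
ANKRD37, chr4:185396591-185396840, plus strand: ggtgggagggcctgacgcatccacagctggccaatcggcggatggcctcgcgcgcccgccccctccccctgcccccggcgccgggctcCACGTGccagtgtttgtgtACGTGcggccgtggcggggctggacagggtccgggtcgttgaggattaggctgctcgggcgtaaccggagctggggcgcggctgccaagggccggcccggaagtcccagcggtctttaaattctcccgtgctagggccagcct
P4HA1, chr10:73096867-73097116, minus strand: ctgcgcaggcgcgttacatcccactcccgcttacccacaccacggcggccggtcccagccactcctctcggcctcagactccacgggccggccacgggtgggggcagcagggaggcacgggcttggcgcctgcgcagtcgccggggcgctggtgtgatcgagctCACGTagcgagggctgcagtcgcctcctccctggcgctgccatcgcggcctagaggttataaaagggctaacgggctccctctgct
In these windows LDHA had 5 matches to ACGTG, ANKRD37 had 3, P4HA1 had 1, and BNIP3 had 2 together with 4 matches to GCGTG. The 4 genes were picked by hand, not by a rule on their values, and do not stand for the module. The lower genes shown are among those with the most matches of the genes lower in every knockdown library. Among other genes lower in every knockdown library, PGK1 had 3 matches to either core, ENO2 and HIF1A 1 each, and PFKP, PKM and PDK1 0. Genes whose groups overlapped ranged from 0 (such as HK1) to 5 (ALDOC). A palindromic CACGTG counts as a match on each strand. GENCODE 29 places the outermost start of all 4 genes further upstream than RefSeq, within the window or, for ANKRD37, before it. RefSeq promoters were matched for 30 of the 33 genes, and VEGFA, BNIP3L and NDRG1 had no entry. ACGTG occurred in 13 of the 30 windows (43.3%), against 18.5% of all 35116 windows of the same length and 23.8% of the 9060 windows of tested genes. GCGTG occurred in 11 of the 30 (36.7%), against 32.2% of all windows and 45.9% of those of tested genes. A match describes letters in this window and does not show a binding site.

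The deposited values are FPKM, that is fragments scaled to transcript length and to the mapped total, which carry no read totals, so the depth is unknown. FPKM summed to 374215 to 420541 per library, and between 12087 and 12311 genes per library reached 1 FPKM. The targeted transcript read 205 and 242 FPKM in control replicates 1 and 2, against 114, 69.6 and 115 FPKM in knockdown replicates 1, 2 and 3, so AHNAK was lower in each knockdown library and lowest in replicate 2. Its log2 difference of -1.19 (SE 0.24) did not pass over all genes (limma adjusted p = 0.372). Nothing in the labels says whether the libraries of a group came from separate cultures, so their spread may be technical. By repeated steps among values under 0.3 FPKM the libraries fell into 2 sets, A (control replicate 1, knockdown replicates 1 and 3) and B (control replicate 2, knockdown replicate 2). No label explains the sets, and differences are also given within each. Deviations of knockdown replicates 1 and 3 from the mean of the 5 libraries followed transcript GC content across genes in opposite directions (Spearman's rho 0.605 and -0.549 over the tested genes with annotation). All 12 keratinocyte markers were above 1 FPKM in every library, and their sum was 6965 and 8515 FPKM in the controls and 4633 to 6367 FPKM in knockdown. Of the 12, 10 had a log2 difference below 0 (against 48.7% of all tested genes), and 2 were above (CDH1 at 0.15 and PERP at 0.51). In 9 of the 12 (75%) all knockdown values were below all controls, against 15.8% of all tested genes. In none were all above, against 16.2%. In bulk RNA, fewer cells of a type and less RNA per cell cannot be told apart. Markers of other cell types were near 0 or low: 6 fibroblast markers summed to 3.30 to 5.02 FPKM in the controls and 6.12 to 10.2 FPKM in knockdown, and 5 melanocyte markers (TYR at 0) to 1.52 to 2.09 FPKM. Of the fibroblast markers tested, DCN (log2 difference 1.78) and COL3A1 (0.74) were higher, while COL1A1 (-0.40) was lower in every knockdown library. The 5 endothelial markers summed to 2.06 to 3.02 FPKM, and 5 immune markers to 16.1 to 18.3 against 21.2 to 28.7 FPKM, nearly all of it CD68 with PTPRC at or near 0. The part of these shifts in the results below was not tested.

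The 33 genes differed in both directions. Differences (knockdown less control) are on the log2(FPKM + 0.5) scale, cover genes averaging 1 FPKM or more over the libraries, and were tested with limma with Benjamini-Hochberg adjustment over 12196 genes and a threshold of 0.05. All 33 genes passed the expression filter. By this test 0 of 33 passed, as did 0.0% of all genes (smallest adjusted p among the 33 was 0.379), so the values below describe these 5 libraries and no gene of the module is called changed. By sign alone 15 were above 0 and 18 below, against 51.3% and 48.7% of all tested genes, and the median log2 difference was -0.03 against 0.01 over all tested genes (set A -0.04, set B -0.15). With limma at an unadjusted p under 0.05 there were 6 of 33 genes (18.2%) against 11.7% of all genes, 1 higher (P4HA1, background 6.22%) and 5 lower (ENO2, HIF1A, VEGFA, BNIP3 and ANKRD37, background 5.48%). That count was 2 without control replicate 1 and 2 without control replicate 2. In 11 genes (33.3%) the groups did not overlap, a share near the 32.0% of all genes. Of these, 10 were lower in every knockdown library (30.3%, background 15.8%) and 1 was higher (3.03%, background 16.2%).

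**Figure D1:**
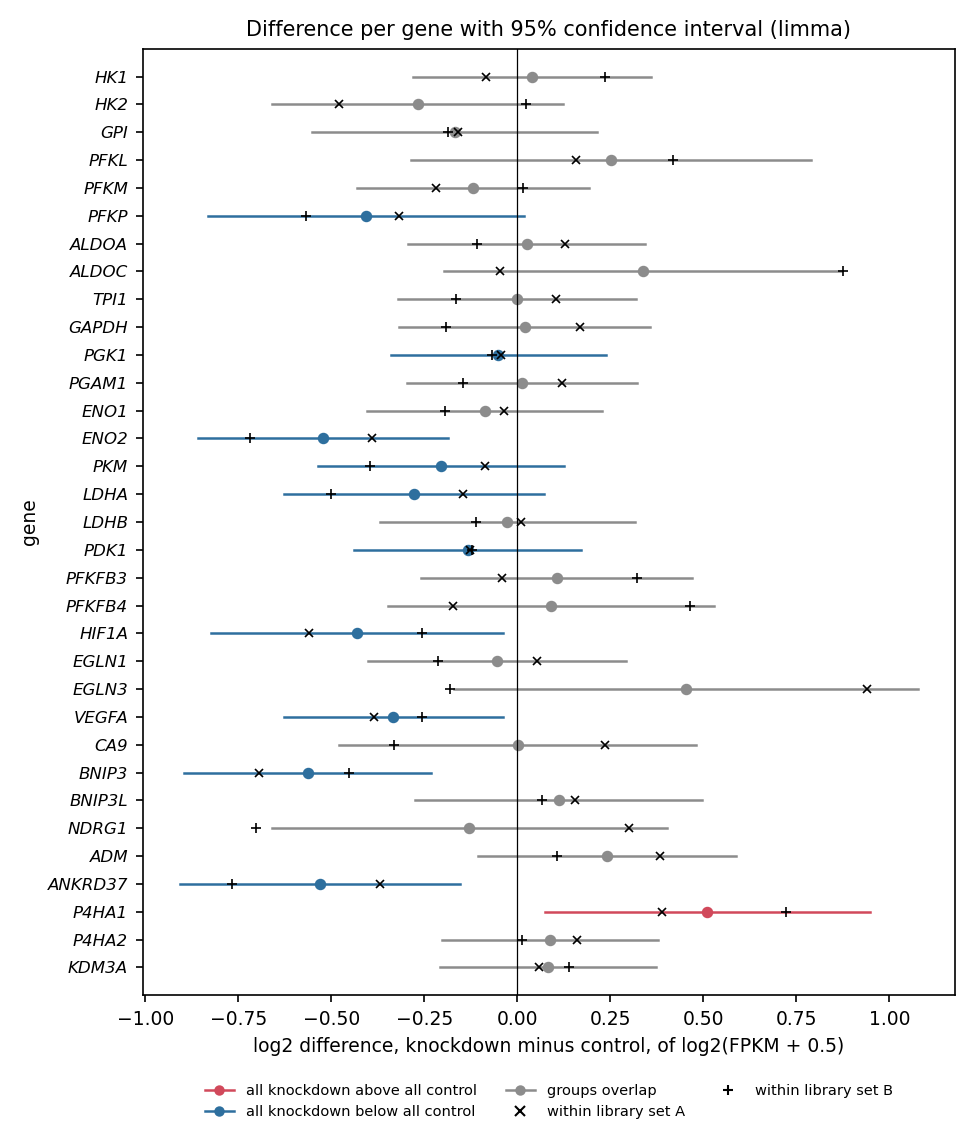
Log2 difference of each of the 33 genes (knockdown minus control, x axis, log2(FPKM + 0.5)) with its limma 95% confidence interval; colour shows whether the groups overlap, and crosses and plus signs show the difference within library sets A and B. The 10 genes in blue lie below 0 with no overlap, P4HA1 in red is the single gene above 0 with no overlap, and the interval excludes 0 for 6 genes.

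Glycolytic enzymes as a class stood at high levels in both groups, with a somewhat lower share of FPKM in knockdown. Together the 17 enzymes made up 1.66% and 1.69% of all FPKM in the controls and 1.64%, 1.46% and 1.49% in knockdown replicates 1, 2 and 3. All 3 knockdown shares lay below both control shares, replicate 1 only slightly. Of the 17, 6 had a log2 difference above 0 and 11 below, with a median of -0.05 (-0.05 in set A, -0.15 in set B). In 5 (PFKP, PGK1, ENO2, PKM and LDHA) all knockdown values lay below all control values, and in none above. That is 29.4% lower and 0.0% higher, against 15.8% and 16.2% of all tested genes, and the total of 29.4% is near the 32.0% of all genes without overlap. The lowest of the 5 libraries was knockdown replicate 2 for 7 of the 17 and knockdown replicate 3 for 5. Over all 12196 tested genes these libraries were lowest for 2222 and 3409 genes.

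Levels per kilobase of transcript differed far more between enzymes than between groups. GAPDH, which oxidizes glyceraldehyde 3-phosphate, was the highest at 1765 and 1991 FPKM in the controls and 1953, 1744 and 2014 FPKM in knockdown. PKM, pyruvate kinase, followed at 995 and 1065 FPKM in the controls, and LDHA at 785 and 828 FPKM. PGK1, phosphoglycerate kinase, came next at 509 and 507 FPKM. TPI1 (451 and 482 FPKM), ALDOA (442 and 487 FPKM) and ENO1 (456 and 451 FPKM), which carry out the triose isomerase, aldolase and enolase steps, lay together. The group means of TPI1 and ALDOA did not differ beyond the spread of the controls. ENO1 was at 462, 394 and 427 FPKM in knockdown replicates 1, 2 and 3, so that replicates 2 and 3 lay below both controls and replicate 1 above. PGAM1, phosphoglycerate mutase, was at 249 and 268 FPKM, GPI, the glucose phosphate isomerase, at 136 and 136 FPKM, and the remaining enzymes were below 130 FPKM in every library. The hexokinases and phosphofructokinases, which carry the regulated early steps, were all below the main enzyme of every later step.

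**Figure D2:**
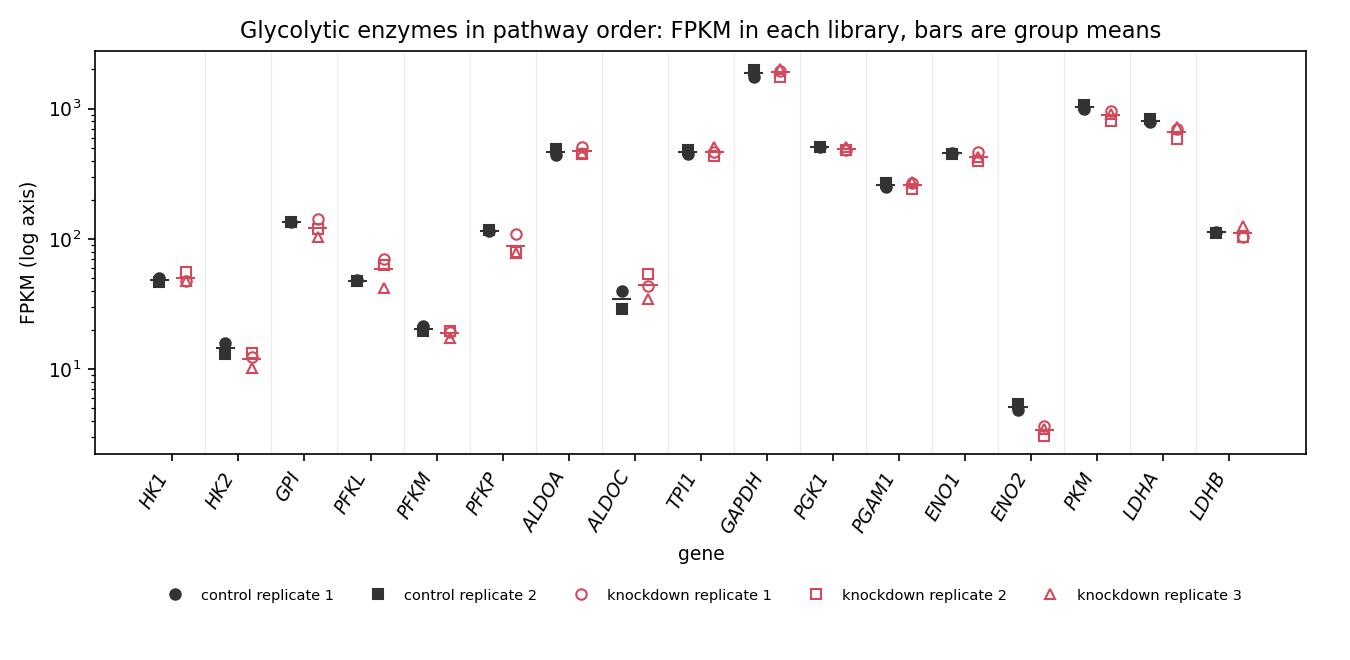
FPKM of the 17 glycolytic enzymes (log axis) in each of the 5 libraries, in the order of the pathway; filled black symbols are controls, open red symbols knockdown, and short bars the group means. Levels run from 3.07 FPKM (ENO2) to 2014 FPKM (GAPDH), and most groups overlap.

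Differences in the middle of the pathway were small, with confidence intervals too wide to call the levels equal. ALDOA had a control mean of 465 ± 32.4 FPKM (SD, n = 2) and a knockdown mean of 473 ± 32.7 FPKM (SD, n = 3), with a log2 difference of 0.03 (95% confidence interval -0.29 to 0.34). For TPI1 the interval ran from -0.32 to 0.32, for GAPDH from -0.32 to 0.36, for PGK1 from -0.34 to 0.24, for PGAM1 from -0.30 to 0.32 and for ENO1 from -0.40 to 0.23. PGK1 had no overlap, yet its group means differed only by a factor of 0.965. The signs of the ALDOA, GAPDH and PGAM1 differences turned negative when libraries were rescaled to the same FPKM sum. GENCODE 29 names 62 pseudogenes of GAPDH and 13 of PGAM1, which can share reads with the parent gene.

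At the end of the pathway, PKM and LDHA had lower values in knockdown. LDHA (GRCh38 chr11:18394388-18408425, plus strand), the subunit that favours lactate formation, read 785 and 828 FPKM in control replicates 1 and 2, against 693, 585 and 726 FPKM in knockdown replicates 1, 2 and 3. All 3 knockdown values were below both controls, and replicate 2 was lowest. The knockdown mean of 668 ± 73.7 FPKM (SD, n = 3) was 0.828 times the control mean of 806 ± 30.9 FPKM (SD, n = 2). The log2 difference of LDHA was -0.28 (SE 0.15, limma adjusted p = 0.501), smaller in set A (-0.15) than in set B (-0.50), and it was -0.18 without knockdown replicate 2. PKM was at 995 and 1065 FPKM against 958, 809 and 917 FPKM, a log2 difference of -0.21 (SE 0.14, limma adjusted p = 0.588), which was -0.13 without knockdown replicate 2. Its FPKM does not separate the muscle-type and the proliferation-type splice form of pyruvate kinase. LDHB, the subunit of oxidative tissues, was at 114 and 112 FPKM against 104, 104 and 127 FPKM and overlapped (log2 difference -0.03, 95% confidence interval -0.37 to 0.31).

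ENO2 (GRCh38 chr12:6913745-6923698, plus strand), the neuronal-type enolase and a known HIF target, was the enzyme of smallest p. It read 4.84 and 5.37 FPKM in control replicates 1 and 2, against 3.67, 3.07 and 3.49 FPKM in knockdown, far below ENO1. Every knockdown value was lower than every control value, and the means had a ratio of 0.667. On the log2 scale ENO2 differed by -0.52 (SE 0.14, 95% confidence interval -0.86 to -0.19, limma adjusted p = 0.387). Set A alone gave -0.39 and set B alone -0.72.

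Among phosphofructokinases the platelet type had lower values and the liver type did not. PFKP (GRCh38 chr10:3066333-3137712, plus strand), the platelet isozyme, was at 115 and 118 FPKM in controls against 109, 79.1 and 77.6 FPKM in knockdown replicates 1, 2 and 3. Knockdown replicate 1 lay close to the controls and the other knockdown libraries well below. Its log2 difference was -0.41 (SE 0.18, limma adjusted p = 0.444). PFKL, the liver isozyme, was at 48.7 and 47.2 FPKM against 70.3, 63.2 and 42.0 FPKM, so that knockdown replicates 1 and 2 lay above the controls and replicate 3 below. PFKL transcripts had a GC content of 64.1%, against a median of 48.5% over tested genes, and the PFKL difference was 0.25 as deposited and 0.40 after correction for GC content and length. It was 0.10 without knockdown replicate 1 and 0.47 without knockdown replicate 3. PFKM, the muscle isozyme, was at 21.4 and 19.5 FPKM against 19.4, 19.7 and 17.3 FPKM.

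The other early enzymes overlapped between groups. HK1, the general hexokinase, was at 50.4 and 47.0 FPKM against 47.2, 55.4 and 47.9 FPKM. HK2, the inducible hexokinase, was at 15.8 and 13.1 FPKM against 12.4, 13.3 and 10.2 FPKM, a log2 difference of -0.27 (SE 0.16), which was -0.48 within set A and 0.02 within set B. It was -0.13 without control replicate 1 and -0.16 without knockdown replicate 3. GPI was at 136 and 136 FPKM against 142, 120 and 104 FPKM. ALDOC, the brain-type aldolase, was at 40.1 and 29.1 FPKM against 43.2, 53.9 and 34.8 FPKM, and its log2 difference was -0.05 within set A, 0.88 within set B. It was 0.56 without control replicate 1, 0.11 without control replicate 2 and 0.18 without knockdown replicate 2.

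Ratios between related genes within a library are unchanged, apart from the pseudocount, when a whole library is rescaled by a factor, and 10 such ratios were compared with an exact two-sided permutation test over the 5 libraries. With 10 possible splits the smallest p this test can give is 0.1, and after Benjamini-Hochberg adjustment over the 10 ratios no value was below 0.286. The balance of BNIP3L to BNIP3, sister proteins that tag mitochondria for autophagy, had log2 ratios of -0.53 and -0.15 in the controls and 0.10, 0.37 and 0.53 in knockdown replicates 1, 2 and 3. BNIP3 was thus the more abundant of the pair per kilobase in both controls and BNIP3L in all 3 knockdown libraries. The difference was 0.67 (exact permutation p = 0.1, set A 0.85, set B 0.52). A trend with GC content does not cancel in such a ratio, and GC content was 51.4% for BNIP3 and 38.9% for BNIP3L. After correction for GC content and length, the log2 difference was -0.58 for BNIP3 and 0.06 for BNIP3L, against -0.56 and 0.11 as deposited. The log2 ratio of ENO2 to ENO1 was -6.42 and -6.27 in the controls and -6.80, -6.79 and -6.74 in knockdown, a difference of -0.43 (exact permutation p = 0.1). PFKP to PFKL was at 1.23 and 1.31 in the controls and at 0.62, 0.32 and 0.88 in knockdown, and the groups did not overlap (difference -0.66, exact permutation p = 0.2). As shares, PFKP gave 62.9% ± 1.27 (SD, n = 2) of the phosphofructokinase FPKM in controls and 53.4% ± 4.08 (SD, n = 3) in knockdown, and PFKL 26.0% ± 0.55 and 35.1% ± 4.16.

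Of the other 7 ratios, 4 were separated between groups and 3 overlapped. No share of separated ratios over gene pairs in general was computed, so this count is not a result about these pairs. Of single tested genes, 32.0% had groups without overlap. PFKL enters both PFKP to PFKL and PFKM to PFKL, so those ratios are not independent. LDHB to LDHA differed by 0.25 (exact permutation p = 0.2, set A 0.16, set B 0.39), so that LDHB formed 12.3% ± 0.53 (SD, n = 2) of the lactate dehydrogenase FPKM in controls and 14.3% ± 1.14 (SD, n = 3) in knockdown. HK2 to HK1 differed by -0.31 and PFKM to PFKL by -0.37 without overlap (both exact permutation p = 0.2). EGLN3 to EGLN1 differed by 0.51 (exact permutation p = 0.1), almost all of it in set A (0.89, against 0.03 in set B). ALDOC to ALDOA (0.31, exact permutation p = 0.5; set A -0.17, set B 0.98), P4HA2 to P4HA1 (-0.42, exact permutation p = 0.3) and PFKFB4 to PFKFB3 (-0.02, exact permutation p = 0.9) overlapped between groups. The difference of ALDOC to ALDOA was 0.61 without control replicate 1, 0.014 without control replicate 2 and 0.12 without knockdown replicate 2. That of EGLN3 to EGLN1 was 0.22 and 0.80 without control replicates 1 and 2, and that of PFKM to PFKL -0.25 without knockdown replicate 1.

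**Figure D3:**
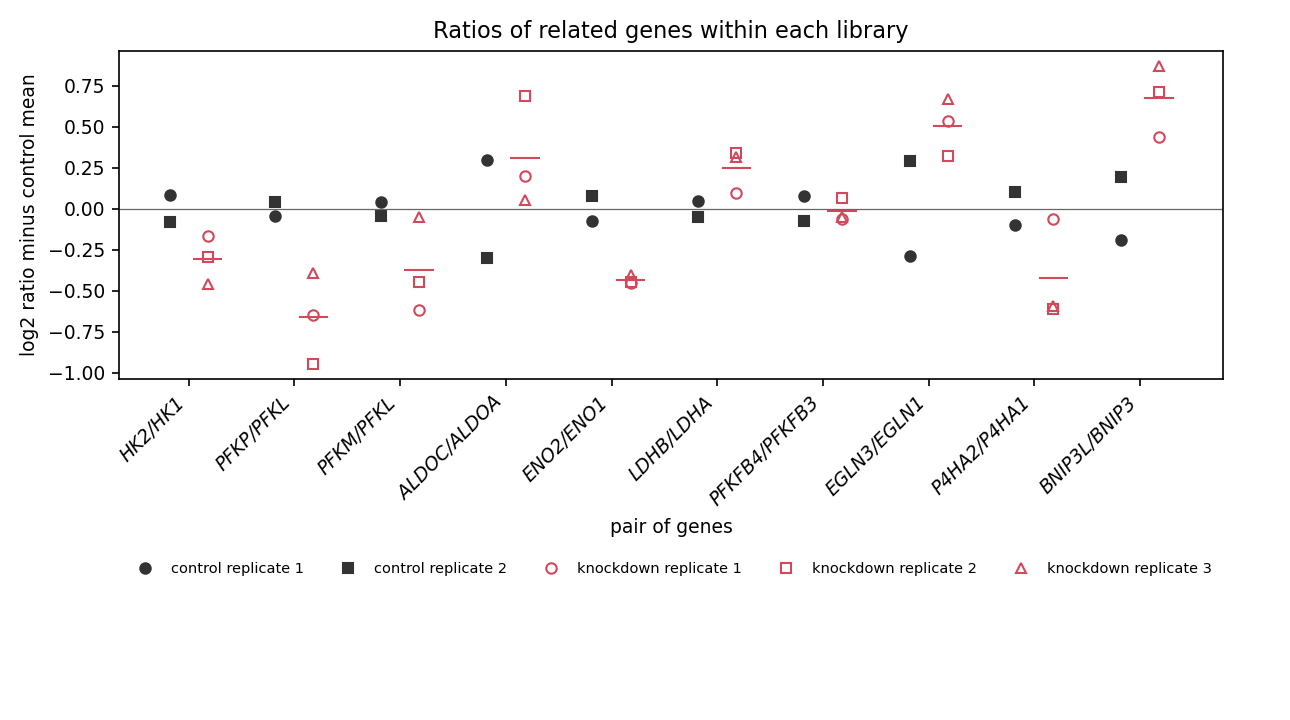
Log2 ratio of 10 pairs of related genes in each library, with the mean of the 2 controls set to 0 (y axis, log2 units); black symbols are controls, open red symbols knockdown, and red bars the knockdown means. BNIP3L/BNIP3 is the pair with the highest knockdown mean and PFKP/PFKL the one with the lowest.

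The 3 regulators of flux had small differences, with confidence intervals too wide to call the levels equal. PDK1, the kinase that shuts pyruvate out of the citric acid cycle, was at 3.91 and 4.05 FPKM in controls against 3.63, 3.68 and 3.45 FPKM in knockdown. Its knockdown values were all lower, by a log2 difference of -0.13 (95% confidence interval -0.44 to 0.17). PFKFB3, which makes the activator fructose 2,6-bisphosphate, was at 45.6 and 40.9 FPKM against 48.9, 51.3 and 40.2 FPKM. PFKFB4, an enzyme of the same family, was at 5.99 and 4.75 FPKM against 5.81, 6.74 and 4.75 FPKM. Both overlapped, with 95% confidence intervals of the log2 difference of -0.26 to 0.47 (PFKFB3) and -0.35 to 0.53 (PFKFB4). Both had a negative difference in set A (-0.04 and -0.17) and a positive one in set B (0.32 and 0.46).

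HIF1A (GRCh38 chr14:61695513-61748259, plus strand) itself had lower mRNA values in knockdown. It read 28.5 and 25.4 FPKM in control replicates 1 and 2, against 22.2, 21.2 and 16.6 FPKM in knockdown replicates 1, 2 and 3. All 3 knockdown libraries were below both controls, and replicate 3 was lowest. The knockdown mean of 20.0 ± 3.01 FPKM (SD, n = 3) was 0.741 times the control mean of 27.0 ± 2.19 FPKM (SD, n = 2). On the log2 scale HIF1A differed by -0.43 (SE 0.16, 95% confidence interval -0.82 to -0.04, limma adjusted p = 0.406). Set A alone gave -0.56 and set B alone -0.26. An antisense gene, HIF1A-AS1, overlaps its exons and reached at most 0.232 FPKM. EGLN1, the main HIF prolyl hydroxylase, was at 9.07 and 9.79 FPKM against 8.52, 8.37 and 10.4 FPKM. EGLN3, a hydroxylase that HIF itself induces, was at 10.5 and 17.2 FPKM in controls against 17.9, 15.1 and 23.9 FPKM in knockdown. The controls differed from each other by more than the group means did, and EGLN3 differed by 0.94 in set A but by -0.18 in set B. Its difference over all libraries, 0.45, was 0.11 without control replicate 1, 0.79 without control replicate 2 and 0.28 without knockdown replicate 3.

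The 10 hypoxia-induced genes went in both directions, 6 with a log2 difference above 0 and 4 below, with a median of 0.04 (set A 0.16, set B -0.12). In 3 of them (BNIP3, ANKRD37 and VEGFA) all knockdown values were below all controls, and in 1 (P4HA1) all were above. The share without overlap, 40.0%, is near the 32.0% of all tested genes. These 4 are also the members of this group with an unadjusted limma p under 0.05 (40.0%, against 11.7% of all tested genes). The other 6 overlapped.

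BNIP3 (GRCh38 chr10:131966455-131982013, minus strand), a mitochondrial protein that triggers mitophagy, was the gene of the module with the smallest p. It read 30.7 and 24.8 FPKM in control replicates 1 and 2, against 18.7, 18.0 and 18.9 FPKM in knockdown replicates 1, 2 and 3. The knockdown libraries lay within 1 FPKM of each other and below both controls, which differed by more. The knockdown mean of 18.5 ± 0.47 FPKM (SD, n = 3) was 0.667 times the control mean of 27.8 ± 4.18 FPKM (SD, n = 2). On the log2 scale BNIP3 differed by -0.56 (SE 0.14, 95% confidence interval -0.90 to -0.23, limma adjusted p = 0.379). Set A alone gave -0.69 and set B alone -0.45. GENCODE 29 names 39 pseudogenes of BNIP3, none of which has a row in the deposited table, so reads may be shared with them. BNIP3L, also called NIX, was at 21.1 and 22.3 FPKM against 20.1, 23.4 and 27.6 FPKM and overlapped.

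ANKRD37 (GRCh38 chr4:185396021-185400628, plus strand), an ankyrin repeat protein induced through HIF, read 4.90 and 5.60 FPKM in control replicates 1 and 2, against 4.06, 3.09 and 3.35 FPKM in knockdown. Every knockdown value was below both controls, with a ratio of means of 0.666. On the log2 scale ANKRD37 differed by -0.53 (SE 0.16, 95% confidence interval -0.91 to -0.15, limma adjusted p = 0.387). Within set A the value was -0.37, within set B -0.77. Its exons overlap UFSP2 on the opposite strand, which was at 9.0 and 9.81 FPKM in the controls and 10.9, 10.9 and 12.3 FPKM in knockdown. The sources used here do not say whether reads were assigned by strand.

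VEGFA (GRCh38 chr6:43770184-43786487, plus strand), the main growth factor for blood vessels, read 56.6 and 54.5 FPKM in control replicates 1 and 2, against 45.4, 45.6 and 41.2 FPKM in knockdown. The groups were apart, with little spread within either. The knockdown mean of 44.1 ± 2.51 FPKM (SD, n = 3) was 0.793 times the control mean of 55.6 ± 1.5 FPKM (SD, n = 2). On the log2 scale VEGFA differed by -0.33 (SE 0.12, 95% confidence interval -0.63 to -0.04, limma adjusted p = 0.403). Within set A the value was -0.39, within set B -0.26.

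P4HA1 (GRCh38 chr10:73007217-73096974, minus strand), a catalytic subunit of the collagen prolyl 4-hydroxylase, differed in the other direction. It read 34.3 and 32.7 FPKM in control replicates 1 and 2, against 38.1, 54.3 and 53.1 FPKM in knockdown replicates 1, 2 and 3. Replicates 2 and 3 were well above the controls and replicate 1 slightly above. The knockdown mean of 48.5 ± 9.03 FPKM (SD, n = 3) was 1.45 times the control mean of 33.5 ± 1.08 FPKM (SD, n = 2). On the log2 scale P4HA1 differed by 0.51 (SE 0.18, 95% confidence interval 0.07 to 0.95, limma adjusted p = 0.395). Within set A the value was 0.39, within set B 0.72. P4HA2, which encodes another catalytic subunit of the enzyme, was at 23.1 and 25.5 FPKM against 26.4, 25.7 and 25.4 FPKM.

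The other hypoxia-induced genes overlapped between groups. NDRG1, a stress-response gene and the most abundant of the 10, was at 390 and 581 FPKM in controls against 479, 357 and 483 FPKM in knockdown, and its log2 difference was 0.30 within set A, -0.70 within set B. ADM, the vasodilator peptide adrenomedullin, was at 39.0 and 48.0 FPKM against 47.7, 51.7 and 54.5 FPKM, a log2 difference of 0.24 (SE 0.15; set A 0.38, set B 0.11). It was 0.094 without control replicate 1 and 0.39 without control replicate 2. CA9, a surface carbonic anhydrase often used as a marker of hypoxia, was at 8.09 and 9.91 FPKM against 11.5, 7.77 and 8.03 FPKM (95% confidence interval of the log2 difference -0.48 to 0.48). KDM3A, a histone demethylase, was at 20.4 and 20.7 FPKM against 22.0, 22.9 and 20.6 FPKM. Of the 10, BNIP3, ANKRD37 and VEGFA were thus separated downward and P4HA1 upward, while CA9, NDRG1, ADM, KDM3A, BNIP3L and P4HA2 overlapped.

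**Figure D4:**
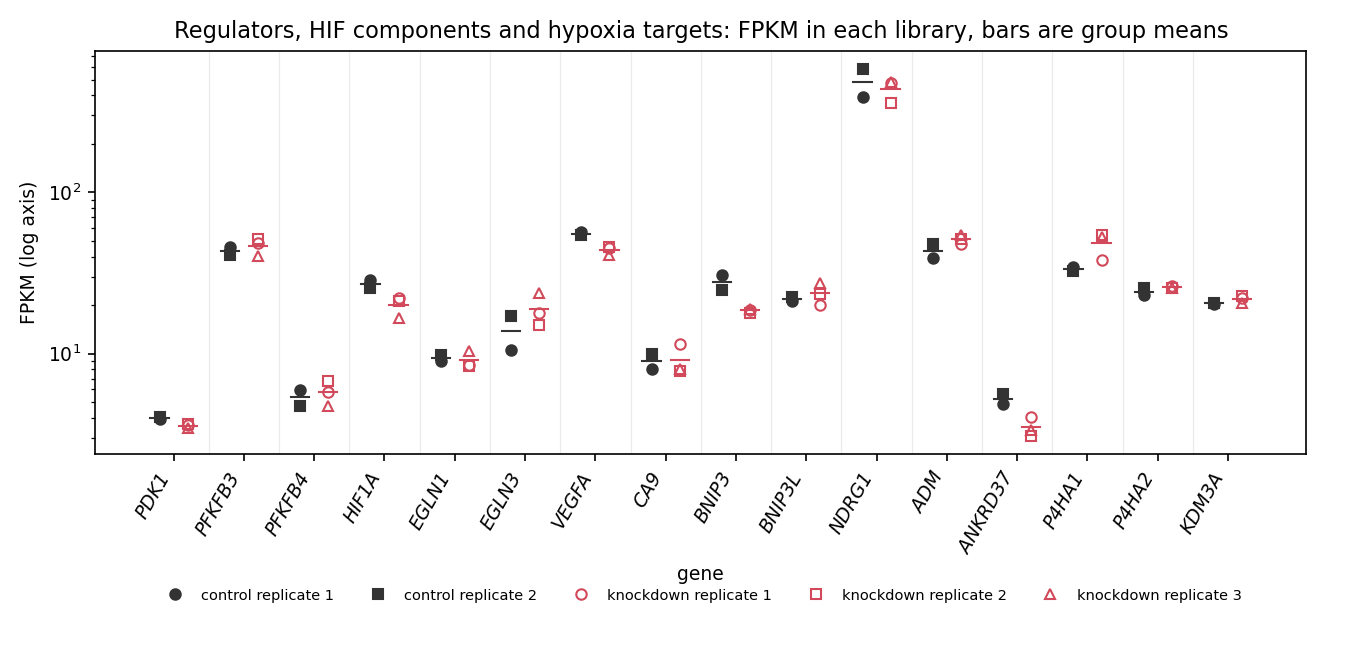
FPKM (log axis) of the flux regulators, HIF1A with its hydroxylases and the hypoxia-induced genes in each library; filled black symbols are controls, open red symbols knockdown, and short bars the group means. HIF1A, VEGFA, BNIP3, ANKRD37 and PDK1 lie lower in every knockdown library, P4HA1 lies higher, and the other genes overlap.

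With limma array weights, which let libraries count unequally (3.98 for knockdown replicate 2, 0.257 for knockdown replicate 3), 6 of the 33 genes passed (18.2%), as did 11.7% of all tested genes. They were P4HA1, higher, and PFKP, ENO2, LDHA, BNIP3 and ANKRD37, lower, with limma adjusted p of 0.0363 to 0.0496. Knockdown replicate 2 carried most of the weight of its group, against 0.53 and 0.257 for knockdown replicates 1 and 3. The weighted fit is therefore close to a comparison of that 1 library with the 2 controls. With equal weights none of the 6 passed, and which of the weights matters was not tested.

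Genes around the module were read from lists of the same pathways, and 0 of their 88 tested members passed over all genes (limma). Of 10 tested genes of glucose and lactate transport, 4 had an unadjusted limma p under 0.05 (40.0%, against 11.7% of all tested genes), 3 of them lower. Without overlap there were 3 higher and 3 lower (30% each way, against 16.2% and 15.8% of all tested genes). By sign 4 of the 10 were above 0 and 6 below, with a median of -0.08. SLC16A3, the lactate exporter MCT4 and a HIF target, read 17.4 and 17.3 FPKM in control replicates 1 and 2, against 11.8, 8.82 and 9.52 FPKM in knockdown. It was lower in all 3 knockdown libraries, by a log2 difference of -0.77 (SE 0.16, set A -0.69, set B -0.93, limma adjusted p = 0.372), more than any member of the module. SLC2A6, a glucose transporter family member, differed by -0.80 (set A -1.25, set B -0.18), and SLC16A8, a lactate transporter at a low level of 0.611 to 3.13 FPKM, by 0.84 (set A 0.22, set B 1.71). Without knockdown replicate 3 SLC2A6 was at -0.51, without control replicate 1 at -0.53, and without control replicate 2 SLC16A8 was at 0.47.

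Of 32 tested further hypoxia-induced genes 15 had a difference above 0 and 17 below (median -0.02), with 4 higher and 4 lower without overlap (12.5% each way, below the 16.2% and 15.8% of all tested genes). ERO1A, an oxidase of the endoplasmic reticulum, read 22.7 and 24.4 FPKM in control replicates 1 and 2, against 33.2, 39.8 and 44.3 FPKM in knockdown. All knockdown values lay above the controls, a log2 difference of 0.71 (SE 0.16, set A 0.74, set B 0.69, limma adjusted p = 0.372). IGFBP3, a binding protein of insulin-like growth factors, differed by 0.63 (set A 0.31, set B 1.12) and RAB20, a small GTPase, by -0.54 (set A -0.71, set B -0.33).

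Of 11 tested genes of the HIF machinery 7 had a difference above 0 and 4 below, with EPAS1 (HIF-2 alpha) at 0.26, EP300, a coactivator, at -0.36 and ELOB, a subunit of the ubiquitin ligase that acts on HIF, at 0.16. Without knockdown replicate 3 EP300 was at -0.19 and ELOB at 0.065 (0.084 without control replicate 1), and without knockdown replicate 2 EPAS1 was at 0.15. EPAS1 was higher in every knockdown library (28.5 and 29.1 FPKM against 33, 40.4 and 31.2 FPKM) while HIF1A was lower in every one. Of 11 tested genes of pyruvate entry into mitochondria 6 were above 0 and 5 below, with the pyruvate carrier subunit MPC1 at 0.34, the dehydrogenase subunit DLD at 0.28 and the kinase PDK2 at -0.40. Without knockdown replicate 3 MPC1 was at 0.22 and DLD at 0.14. Of 15 genes of the pentose phosphate, glycogen and gluconeogenesis branches 7 were above 0 and 8 below, with transketolase (TKT) at 0.41, PCK2 at 0.41 and the glycogen phosphorylase PYGL at -0.24. PCK2 was at 0.22 without control replicate 2. Of 9 tested further isozymes of glycolysis 4 were above 0 and 5 below, with the ADP-dependent glucokinase ADPGK at -0.40, TIGAR, a phosphatase that lowers fructose 2,6-bisphosphate, at -0.28 and GAPDHS, the sperm-type GAPDH, at 0.16. ADPGK was at -0.26 without knockdown replicate 2, and GAPDHS ranged from -0.014 to 0.34 over the libraries left out.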

How the data were processed

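Total RNA of 2 control and 3 AHNAK knockdown libraries was profiled by RNA sequencing. The authors deposited an FPKM value per gene and library. HISAT2 2.0.1 and StringTie 2.0.6 are listed in the submitters' processing notes, as are the builds GRCh38 and mm9, without a role. The annotation and any strand setting were not given in the sources used here. All 33 genes and the lists of related genes were chosen with earlier results of these data known. Every one of the 33 is named, with the 3 genes of smallest p of each related list. From FPKM, log2(FPKM + 0.5) was computed for the 12196 genes averaging 1 FPKM or more and fitted with limma 3.58.1 (R 4.3.3, eBayes with a trend, two-sided, Benjamini-Hochberg over all genes). Groups and replicate numbers came from the labels. In 10 simulated runs of 12196 genes for this comparison, 1% of changes of 0.5 and 41.8% of changes of 1 on the log2 scale were called. Library sets were found from ratios of values under 0.3 FPKM that repeat to 5 decimals: the most frequent ratio held for 17.0% to 25.1% of low genes within a set and at most 3.96% between sets. Gene models, lengths and GC content came from GENCODE 29 (GRCh38; 96.5% of tested genes matched by symbol), and promoters from RefSeq. Alternatives were other pseudocounts, filters, scalings, weights and terms, a loess correction (span 0.3) for GC content and length, and each library left out in turn.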

Additional observations from a re-analysis of the deposited data

How the results depend on the processing

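Of 492 refits of the 33 genes, 454 kept the direction of the difference, and 23 genes kept it in every one. Changes of the filter cannot alter a gene's difference. The replicate block gives the same differences as leaving out knockdown replicate 3. The refits are therefore not independent, and these counts overstate how far the direction was tested. Over all genes, the number past the threshold was 1 with a pseudocount of 1, 1428 with array weights, and 0 to 9 with a library left out (9 without control replicate 1). With array weights 6 of the 33 genes passed and 11 had an unadjusted p under 0.05 (limma), the median member difference was -0.091, and AHNAK differed by -1.55 (limma adjusted p = 0.0340). In that fit knockdown replicate 2 carried most of the weight of the knockdown group. Leaving out a library gave 2 to 8 of the 33 at an unadjusted p under 0.05, with 2 without either control. The median member difference was -0.081 with equal sums and -0.074 with quantile scaling, and equal sums moved the median of all tested genes to -0.044. No cause of these differences was tested. No label says whether replicate numbers pair these libraries. Deviations of control replicate 1 from its group mean correlated at -0.064 with those of knockdown replicate 1 and at 0.578 with those of replicate 2. With 2 controls, control replicate 2 shows the same values with the sign turned (-0.578 with knockdown replicate 2, also of set B). The correlations therefore cannot decide on pairing. A replicate block, in which knockdown replicate 3 has no partner and drops out of the difference, gave 3 of the 33 at an unadjusted p under 0.05.

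The genes whose direction turned all had small differences, and the values that follow are log2 differences. With equal sums they were -0.015 (HK1), -0.030 (ALDOA), -0.035 (GAPDH), -0.041 (PGAM1) and -0.051 (CA9). Quantile scaling gave -0.053 (ALDOA), -0.051 (PGAM1) and -0.00070 (CA9). Array weights gave -0.016 (ALDOA), -0.074 (GAPDH), -0.066 (PGAM1) and -0.13 (CA9). The replicate block gave -0.022 (GAPDH), -0.016 (PGAM1) and -0.0023 (BNIP3L). PGAM1 was at -0.030 after the GC content and length correction, and CA9 at -5.09e-05 with a pseudocount of 0.1 and at -0.0073 with a library set term. Leaving out each library in turn gave -0.033 to 0.090 for HK1, -0.046 to 0.096 for ALDOA, -0.058 to 0.057 for TPI1, -0.067 to 0.11 for GAPDH, -0.041 to 0.067 for PGAM1 and -0.12 to 0.022 for LDHB. It gave -0.064 to 0.24 for PFKFB4, -0.17 to 0.14 for CA9, -0.0023 to 0.22 for BNIP3L, -0.42 to 0.16 for NDRG1 and -0.014 to 0.34 for GAPDHS. The log2 ratio of PFKFB4 to PFKFB3 ranged from -0.092 to 0.061. FPKM holds no counts, so what depth limits is unknown.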

Other observations

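Several isozymes of the pathway had values at or near 0: HK3 and PGK2 were listed at 0 in all 5 libraries, as were PDK4, PCK1, HIF3A and CXCR4, while PKLR and LDHC stayed below 0.1 FPKM. EGLN2, a prolyl hydroxylase found in most cell types, was at 0.017 to 0.046 FPKM. SLC2A1, the main glucose transporter of keratinocytes, named here after its values were seen, was at 71.8 and 89.7 FPKM in the controls and 80.4, 63.4 and 61.4 FPKM in knockdown, a log2 difference of -0.24. SLC16A1, the lactate transporter MCT1, also named after its values were seen, was at 40.8 and 37.2 FPKM against 28.7, 29.5 and 33.8 FPKM, a log2 difference of -0.34. Its partner protein BSG (basigin), named after its values were seen as well, which brings MCT1 and MCT4 to the membrane, was at 419 and 426 FPKM against 508, 516 and 497 FPKM, a log2 difference of 0.26. Not all transporters of this family went one way: SLC16A8 differed by 0.84 and SLC16A7 by 0.39, and none of these genes passed over all genes (limma).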
